A study of Homo sapiens with 4 samples.

Results

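The genes described here are 6 noncoding host transcripts of small nucleolar RNAs (SNHG1, SNHG3, SNHG5, SNHG7, SNHG8 and SNHG12) and 4 genes for proteins of the particles that hold these RNAs (FBL, NOP56, NOP58 and DKC1). They were chosen by the log2 differences between cholate and vehicle on these same arrays, in which small nucleolar RNAs (snoRNAs) read higher in cholate. A gene counted as measured when a probe set listed it and no other gene, and where there were several the brightest on average was used. By that rule 3 of the 10 genes were measured, FBL, NOP58 and DKC1, among 18417 genes with such a probe set in the whole series. SNHG1, SNHG3, SNHG12 and NOP56 were listed only in probe sets shared with other genes, which were snoRNAs except for 1 probe set that SNHG3 shares with RCC1. SNHG5, SNHG7 and SNHG8 were in no listed probe set, by symbol or by gene number. The level of a noncoding host itself was therefore not measured for any of the 6, and the results turn on 3 protein transcripts, on the snoRNAs inside the hosts and on 15 shared probe sets.

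The RNA came from Caco-2, an established human line from a colorectal adenocarcinoma that forms an enterocyte-like layer once confluent. There was 1 array for each of 4 conditions, every one a pool of RNA from 3 samples: collagen-coated Transwell inserts with 2 mM cholate, Transwell with vehicle, regular 6-well plates with 2 mM cholate, and plates with vehicle. Exposure lasted 3 h, and on inserts the bile acid was in the apical compartment. The sample labels state 21 days of differentiation throughout, while the growth protocol gives 14 days for plates and 14 to 21 days for inserts, so support and culture age may differ together and cannot be told apart. Cholate was given in a salt solution without calcium. What the vehicle held is not stated in the labels.

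Values are RMA log2 intensities, with array medians of 5.64 to 5.73 and correlations between arrays of 0.977 to 0.993 over the probe sets above a floor. The floor was the 40th percentile of probe set means, a log2 intensity of 4.84. All 9 markers of intestinal epithelium lay above it, with list means of 10.88 and 10.92 in cholate and vehicle on Transwell and 10.66 and 10.72 on the plate. Of the measured markers of other cell types, 1 of 4 leukocyte (CD14), 3 of 5 fibroblast (COL1A1, COL3A1, PDGFRA) and 1 of 4 endothelial genes (PECAM1) were above it, while PTPRC, CD3E, CDH5 and KDR were under it on all 4 arrays. Their list means ranged from 4.82 to 4.99, from 4.92 to 5.13 and from 4.43 to 4.62 over the 4 arrays, and their part in the results was not tested. Single markers differed more than these means. For Transwell minus plate in cholate and in vehicle, LGALS4 of the epithelial list stood at 1.18 and 1.14 log2, CDX2 at 0.56 and 1.0, KRT20 at 0.83 and 0.39, PECAM1 at 0.70 and 0.30, and COL1A1 at -0.54 and -0.33. With cholate PDGFRA stood at -0.03 on Transwell and -0.77 on the plate. In pooled bulk RNA, fewer cells of a type and less RNA per cell cannot be told apart. No condition was measured again, so differences between 2 arrays carry no replicate check, and the number of arrays limits the precision.

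snoRNAs are short nuclear RNAs that guide chemical modification of ribosomal RNA. Most are cut out of the introns of a host gene after splicing, so host and snoRNA start from the same transcript and can reach different levels afterwards. Those of the C/D box class direct ribose methylation by fibrillarin, the enzyme encoded by FBL, in a particle built on NOP56 and NOP58. Those of the H/ACA class direct pseudouridylation by dyskerin, the enzyme encoded by DKC1, which also belongs to telomerase. The SNHG genes are known chiefly as carriers of such RNAs in their introns, and their spliced RNAs are often exported and decayed.

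Many host genes start transcription at a C followed by further pyrimidines, the terminal oligopyrimidine tract that ties translation to growth signals. The RefSeq windows of 6 members are shown because they cover FBL and DKC1, the enzymes of the 2 snoRNA classes, and the 4 noncoding hosts whose snoRNAs have values below, apart from SNHG3. Each runs 5′ to 3′ from 10 bases before the annotated start through the first 20 transcribed bases, and capitals mark the unbroken run of C and T that begins at the first transcribed base.
FBL: cgcctgcgctCTTTTCCacgtgcgaaagcc
DKC1: gtgcgcgggtgggtgggtcctagcagcgcg
SNHG1: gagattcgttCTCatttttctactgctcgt
SNHG5: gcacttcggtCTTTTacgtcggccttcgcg
SNHG8: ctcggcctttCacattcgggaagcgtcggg
SNHG12: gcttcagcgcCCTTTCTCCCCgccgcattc

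In GRCh38.p14 these windows lie at chr19:39846360-39846389 on the minus strand for FBL and at chrX:154762854-154762883 on the plus strand for DKC1. They lie at chr11:62855866-62855895 (minus) for SNHG1, chr6:85678714-85678743 (minus) for SNHG5, chr4:118278752-118278781 (plus) for SNHG8 and chr1:28581854-28581883 (minus) for SNHG12. Of the 9 members with a window in the table, 3 began with a C and at least 4 more pyrimidines, namely FBL, SNHG5 and SNHG12, against 4.07% of 35116 RefSeq promoters. The run was 11 bases in SNHG12, 7 in FBL and 5 in SNHG5, and DKC1 began with G. A TATA motif (TATAA or TATAT, read on the gene's strand, with overlaps counted once) began 40 to 21 bases before the start in 4 of the 9, SNHG5, SNHG7, SNHG8 and SNHG12, against 5.02% of promoters. The palindrome CACGTG, the same on both strands, occurred between 250 bases before and 50 after the start in 2 of the 9, FBL and SNHG7, against 7.26%. These are letter matches in annotated windows and not measured sites.

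The first question was whether the transcripts of the particle proteins moved with cholate. FBL read 10.07 in cholate and 10.06 in vehicle on Transwell, and 9.68 in cholate and 9.71 in vehicle on the plate. NOP58 read 10.82 in cholate and 10.79 in vehicle on Transwell, and 10.27 in cholate and 10.42 in vehicle on the plate. DKC1 read 9.02 in cholate and 9.17 in vehicle on Transwell, and 8.10 in cholate and 8.61 in vehicle on the plate. For all 3 genes both Transwell arrays lay above both plate arrays, and the plate cholate array was the lowest of the 4. The share of all genes with that order is not given. Of the genes above the floor 39.5% were higher on Transwell in both treatments.

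**Figure D1:**
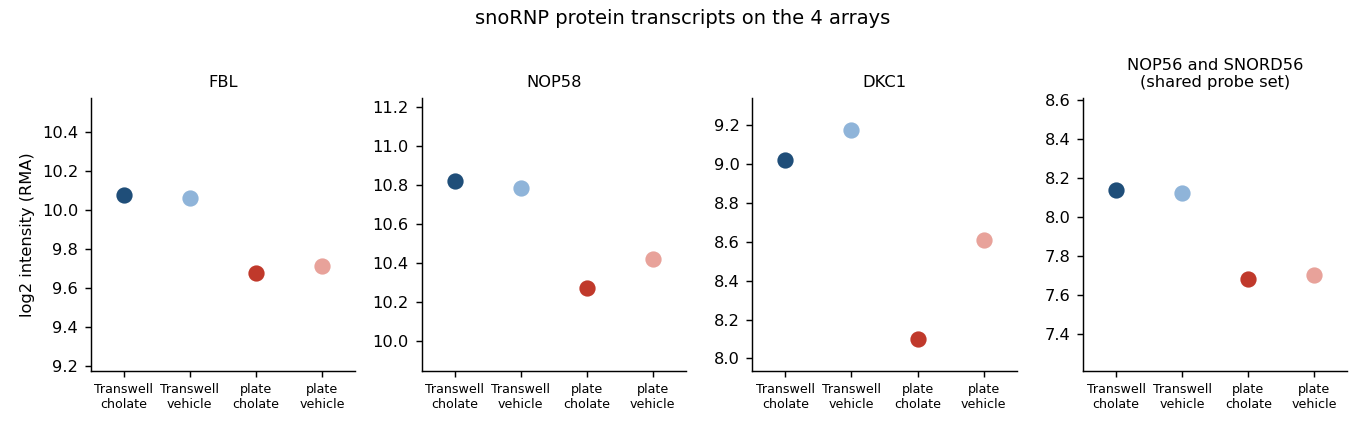
RMA log2 intensity (vertical axis) of FBL, NOP58, DKC1 and the probe set shared by NOP56 and SNORD56 on the 4 arrays, 1 point per array with no error since each condition has 1 array. The panels have axes of equal span but different origin, and in all 4 the Transwell arrays sit above the plate arrays.

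Cholate minus vehicle was -0.16 log2 on Transwell and -0.50 on the plate for DKC1, a fold of 0.898 and 0.705. It was 0.04 and -0.15 for NOP58 and 0.01 and -0.04 for FBL, and both Transwell values lay below 0 after median centring of the arrays, at -0.01 and -0.03. None of the 3 reached 1.5-fold on either support. On Transwell 0.357% of the 12900 genes above the floor were higher by that much and 0.736% lower, and of all 19978 probe sets above it 1.78% and 1.22%. On the plate 1.49% of genes were higher and 2.35% lower, and 5.23% and 2.31% of probe sets. With a smaller mark of 0.32 log2, DKC1 was past it on the plate, lower in cholate, as were 10.3% of genes and 9.32% of probe sets, while 5.74% and 12% were higher. No member was past 0.32 log2 on Transwell, where 2.73% of genes and 6.11% of probe sets were higher and 3.48% and 4.47% lower. This contrast entered the choice of the genes, so these counts are a description.

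The probe set listing NOP56 together with SNORD56 read 8.14 in cholate and 8.12 in vehicle on Transwell, and 7.68 in cholate and 7.70 in vehicle on the plate. Its cholate responses, 0.02 and -0.02, were close to those of FBL, which works in the same particle, but its signal belongs to both listed genes.

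The snoRNAs inside the hosts were read next. The RefSeq table places 31 snoRNA genes within the spans of the 10 members, of which 7 had a probe set of their own, 13 only a shared one and 11 none listed. The table holds no strand, so the strand of the inner genes was not checked, and all but 2 of the 31 are on a list of known guests of these hosts. For the 7 with their own probe set, the median cholate response was 0.21 log2 on Transwell and 0.55 on the plate, against medians of -0.01 and -0.03 over the genes above the floor. On the plate 7 of the 7 were above 0 and 3 were at least 1.5-fold higher, where 1.49% of genes were. On Transwell 6 were above 0 and 1 was at least 1.5-fold higher, where 0.357% of genes were. The choice of the members rested on snoRNAs in this contrast, so nothing is read from these shares. Among all 136 snoRNA and small Cajal body RNA genes above the floor the medians were 0.13 and 0.37.

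SNORD50B, a C/D box snoRNA in an intron of SNHG5, read 8.93 in cholate and 8.13 in vehicle on Transwell, and 10.25 in cholate and 7.88 in vehicle on the plate. Its neighbour in the same host, SNORD50A, read 9.98 and 9.64 on Transwell and 10.68 and 9.47 on the plate, in the same order of cholate and vehicle. Both were higher in cholate on either support, by 0.80 and 2.36 log2 for SNORD50B and by 0.35 and 1.20 for SNORD50A on Transwell and the plate. The SNHG5 start shown above carries a pyrimidine run, and no probe set listed SNHG5 itself.

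SNORD30, a C/D box snoRNA of SNHG1, read 10.37 in cholate and 10.16 in vehicle on Transwell, and 10.61 in cholate and 9.34 in vehicle on the plate. SNORD28 of the same host read 11.01 and 11.04 on Transwell and 10.95 and 10.77 on the plate. The plate response was thus 1.27 log2 for the one and 0.18 for the other, although both are cut from the same primary transcript. The single low array for SNORD30 was plate vehicle.

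SNORA24, the H/ACA snoRNA of SNHG8, read 9.40 in cholate and 9.21 in vehicle on Transwell, and 9.17 in cholate and 8.62 in vehicle on the plate. Inside NOP56, SNORD57 read 10.68 and 10.55 on Transwell and 10.37 and 10.20 on the plate, and SNORA51 read 5.93 and 5.62 on Transwell and 5.63 and 5.29 on the plate. The responses of both, 0.13 and 0.18 for SNORD57 and 0.31 and 0.34 for SNORA51, were nearly the same on the 2 supports, unlike those of the SNHG5 snoRNAs.

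**Figure D2:**
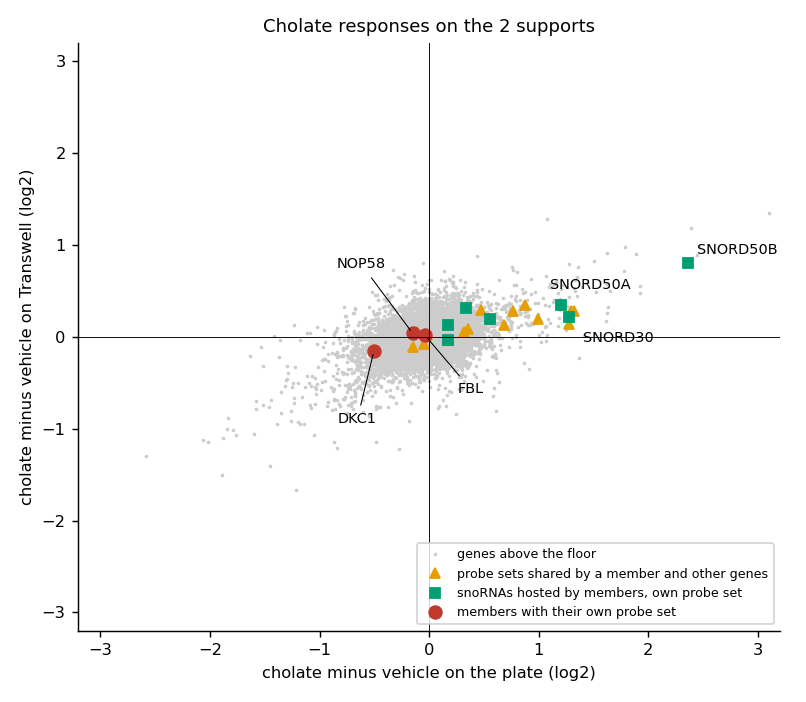
Cholate minus vehicle on the plate (horizontal axis, log2) against the same difference on Transwell (vertical axis, log2), with 1 point per gene or probe set and no error bars because each difference uses 2 arrays. The 3 members with their own probe set sit at or left of 0 on the plate, while the hosted snoRNAs extend to SNORD50B at 2.36 on the plate and 0.80 on Transwell.

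Of the 15 shared probe sets, 14 were above the floor. With cholate, 12 of these were above 0 on Transwell and 10 on the plate, against 49.1% and 50.2% of all probe sets. Of the 136 snoRNA and small Cajal body RNA genes 72.8% and 89.0% were. Cholate responses entered the choice of the members, so nothing is read from these counts. The median response of the 14 probe sets was 0.13 log2 on Transwell and 0.58 on the plate. The 6 that list SNHG1 with a snoRNA ranged from 0.06 to 0.34 on Transwell and from 0.31 to 1.32 on the plate. The 4 that list SNHG12 with its snoRNAs ranged from 0.12 to 0.28 and from 0.68 to 1.29. SNHG3 was different, with 0.05 and -0.11 for the probe set it shares with SNORA73A, and -0.08 and -0.04 for the one shared with RCC1, a chromatin-bound exchange factor gene. DKC1 shares 1 probe set above the floor with SNORA56, at -0.11 and -0.14. How much of any shared signal comes from the spliced host and how much from the snoRNA was not tested.

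Within a host, the responses followed the position of the snoRNA in part, a pattern noticed after the values were seen. In SNHG12 the plate response was 1.29 log2 for SNORA16A, nearest the start, then 1.27 for SNORA44 and 0.68 for SNORA61. In SNHG5 it was 2.36 for SNORD50B, nearest the start, and 1.20 for SNORD50A. In SNHG1 it ran 1.32 (SNORD25), 0.76 (SNORD26), 0.87 (SNORD27), 0.18 (SNORD28), 0.36 (SNORD29), 1.27 (SNORD30), 0.47 (SNORD31) and 0.31 (SNORD22) from the start onward. SNORD27, SNORD29 and SNORD30 each stood above the snoRNA listed before, so there was no steady decline in SNHG1. Nor was there one in NOP56, with 0.34 for SNORA51, -0.02 for SNORD56 and 0.18 for SNORD57. In all 4 hosts with more than 1 such probe set above the floor, NOP56 included, the measured snoRNA nearest the start had the highest response on the plate, and in 3 of the 4 it did so on Transwell, SNHG1 being the exception. The lead was small in SNHG12, 1.29 against 1.27, and in SNHG1, 1.32 against 1.27 for SNORD30. In NOP56 the snoRNA concerned is SNORA51, number 2 of 5 from the start, with values of 5.29 to 5.93 near the floor of 4.84. SNHG5 has 2 such probe sets and SNHG12 and NOP56 have 3 each, so the first can be highest without any order. With 4 hosts, partly shared probe sets and a contrast that entered the choice of the members, this has no test.

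**Figure D3:**
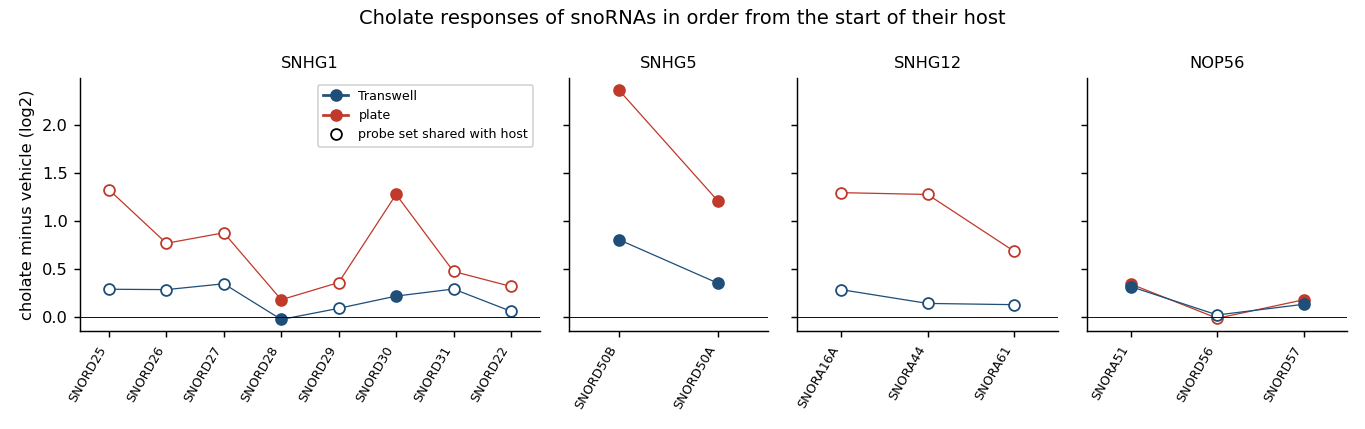
Cholate minus vehicle (vertical axis, log2) for the snoRNAs of SNHG1, SNHG5, SNHG12 and NOP56, placed from the start of the host at the left, on Transwell (blue) and on the plate (red). Open points are probe sets that also list the host, and the leftmost point of each panel is the highest on the plate, from 0.34 in NOP56 to 2.36 in SNHG5.

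The responses were unequal between supports, with opposite signs in the protein transcripts and the hosted snoRNAs, though FBL and SNORA51 differed little. Transwell response minus plate response was 0.35 log2 for DKC1, 0.19 for NOP58 and 0.05 for FBL, so the protein transcripts stood nearer to 0 or higher on Transwell. All 7 hosted snoRNAs with their own probe set had the larger response on the plate, with differences from -0.03 for SNORA51 to -1.56 for SNORD50B. Medians over all 136 snoRNA and small Cajal body RNA genes were also larger on the plate, 0.37 log2 against 0.13 on Transwell. The share of all genes with a larger plate response is not given, and the cholate contrast entered the choice of the members. Nothing is therefore read from the count of 7. The difference between responses uses all 4 arrays and has no test, and a high or low plate pool cannot be told apart from a response on the plate.

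The second question was how the support itself went with these transcripts. FBL, NOP58 and DKC1 were all higher on Transwell. The difference was 0.40 log2 in cholate and 0.35 in vehicle for FBL, 0.55 and 0.36 for NOP58, and 0.91 and 0.57 for DKC1. All 3 were higher by at least 0.32 log2 in both treatments. The share of genes past 0.32 log2 in both at once is not given, so the shares stand for each treatment alone. In cholate 15.4% of genes and 14.5% of probe sets were higher by that much and 11.7% and 14.4% lower, and in vehicle 9.64% and 11.1% were higher and 10.2% of each lower. DKC1 in cholate, at 1.88-fold, was the single one past 1.5-fold, where 4.02% of genes and 3.96% of probe sets were higher and 3.75% and 5.64% lower. In vehicle DKC1 stood at 1.48-fold, just short of that mark, which 1.93% of genes and 2.81% of probe sets passed upward and 3.16% and 3.31% downward.

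Across both treatments limma, with support and treatment as additive terms, put Transwell minus plate at 0.37 ± 0.09 log2 for FBL, 0.46 ± 0.10 for NOP58 and 0.74 ± 0.12 for DKC1 (estimate ± SE, n = 2 arrays a support). Each difference exceeded its SE several times over and had the same sign in both treatments. The Benjamini-Hochberg adjusted p-values from limma over 19978 probe sets were 0.148, 0.141 and 0.119, so none passed 0.05, which does not show equal levels. The unadjusted limma p-values were 0.014, 0.011 and 0.0045. Of all probe sets above the floor 0% passed, higher or lower, with a smallest adjusted p of 0.0858, although 4519 had an unadjusted p under 0.05. With the floor at the 60th percentile DKC1 was the single member to pass (limma adjusted p = 0.0402). How many of all probe sets passed under that floor is not given. The error in this fit is the difference between the treatments and not the spread between cultures. Both plate arrays enter this comparison and also the cholate response on the plate.

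Among the hosted snoRNAs with their own probe set, 4 of 7 were higher on Transwell in cholate and 7 of 7 in vehicle. Of all genes above the floor 53.4% and 52.8% were, and of the 136 snoRNA and small Cajal body RNA genes 32.4% and 72.8%. A low plate vehicle array raises both the vehicle support difference and the cholate response on the plate. A high plate cholate array raises that response and lowers the support difference in cholate. Since snoRNA responses to cholate entered the choice of the members, nothing is read from these counts. In vehicle the 7 hosted snoRNAs ran from 0.16 log2 for SNORD50A to 0.82 for SNORD30. In cholate they ran from -1.32 for SNORD50B to 0.31 for SNORD57, with SNORD50B, SNORD50A and SNORD30 below 0. SNORD50A, from the same host as SNORD50B, stood at -0.69. The probe set of NOP56 and SNORD56 was higher on Transwell by 0.45 in cholate and 0.42 in vehicle, like the 3 protein transcripts.

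**Figure D4:**
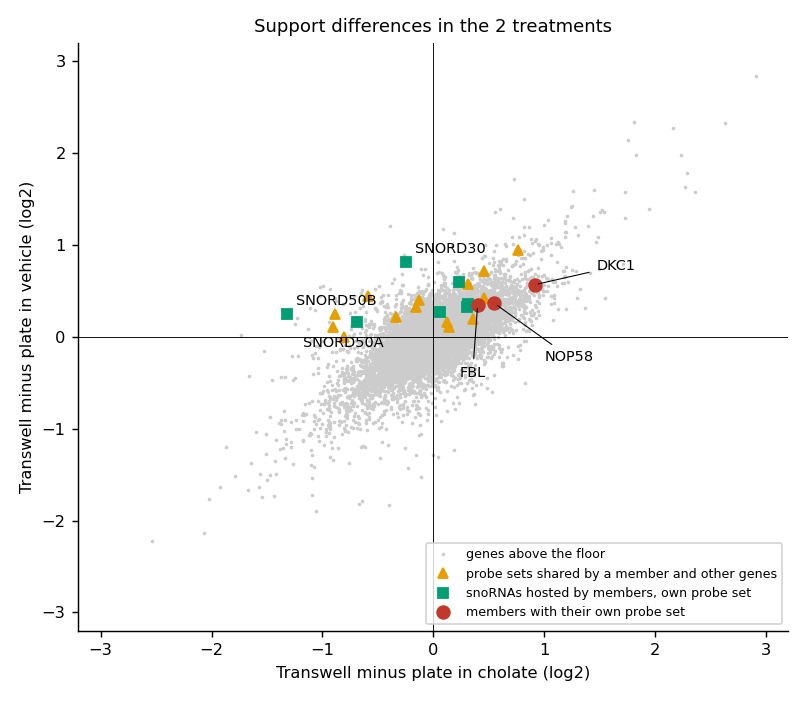
Transwell minus plate in cholate (horizontal axis, log2) against the same difference in vehicle (vertical axis, log2), 1 point per gene or probe set, each difference from 2 arrays. FBL, NOP58 and DKC1 lie in the upper right, between 0.40 and 0.91 in cholate, while SNORD50B lies at -1.32 in cholate and 0.24 in vehicle.

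Other genes of the same pathways were followed as lists, to be read beside the medians of all genes above the floor, -0.01 with cholate on Transwell, -0.03 on the plate, and 0.02 for support in either treatment. Other snoRNP and Cajal body genes (7 of 8 measured, all above the floor) include the dyskerin partners NHP2, NOP10 and GAR1. With cholate 2 of the 7 were above 0 on Transwell and 0 on the plate, against 46.4% and 44.9% of all genes, with medians of -0.10 on Transwell and -0.22 on the plate. None reached 1.5-fold, and 2 of the 7 were lower by at least 0.32 log2 on the plate, where 10.3% of all genes were. NOLC1, a nucleolar chaperone of these particles, stood at -0.17 on Transwell and -0.49 on the plate, and NOP10 at -0.24 and -0.19. For support, the medians were 0.27 in cholate and 0.23 in vehicle, with COIL, the scaffold of Cajal bodies, at 0.60 and 0.41 and RRP9 at 0.59 and 0.28.

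The list of factors that assemble snoRNPs or trim their RNA (28 of 28 measured) had cholate medians of -0.02 on Transwell and -0.16 on the plate, with 13 of 28 above 0 on Transwell, close to the 46.4% of all genes, and 3 of 28 on the plate, against 44.9%. Members at least 1.5-fold lower on the plate numbered 2, where 2.35% of genes were: ZNHIT6, a C/D box assembly factor, at -0.87, and the exosome subunit gene EXOSC3 at -0.64. On Transwell they stood at 0.01 and -0.04. In the support comparison 17 of 28 were higher by at least 0.32 log2 in cholate, against 15.4% of genes, and 2 of 28 in vehicle, which is no more than the 9.64% of genes there. Those 2 were the exosome genes EXOSC8 (0.58 and 0.37) and EXOSC2 (0.43 and 0.36).

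Genes of rRNA synthesis and processing (37 of 40 measured) showed the same directions. Their cholate medians were -0.03 on Transwell and -0.27 on the plate, and 14 of 37 were above 0 on Transwell and 4 of 37 on the plate, against the same 46.4% and 44.9% of genes. Lower by at least 0.32 log2 on the plate were 14, against 10.3% of all genes. Past 1.5-fold, where 2.35% of genes were, there were 2: RRS1, a factor of large subunit assembly, at -0.86 and NOP14, of small subunit assembly, at -0.61. RRS1 read 7.88 in cholate and 7.83 in vehicle on Transwell, and 6.17 in cholate and 7.03 in vehicle on the plate. For Transwell minus plate the medians were 0.42 in cholate and 0.24 in vehicle, and 12 of 37 were at least 1.5-fold higher in cholate, against 4.02% of genes, and 3 in vehicle, against 1.93%. RRS1 was higher by 1.71 and 0.79, and POLR1B, a subunit of RNA polymerase I, by 1.17 and 0.72. No gene of these lists passed limma for support, with a smallest adjusted p of 0.11 among the rRNA genes.

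Other snoRNA hosts mostly lay close to 0 with cholate. Of 30 measured protein-coding hosts, many of them ribosomal protein genes with near-identical copies elsewhere in the genome, the cholate medians were -0.00 on Transwell and -0.01 on the plate. Against 10.3% of all genes, 1 of 30 was lower by at least 0.32 log2 on the plate. That gene was CWF19L1, host of an H/ACA snoRNA, at -0.03 on Transwell and -0.53 on the plate. NCL, which encodes nucleolin, stood at -0.11 and -0.27. Support medians were 0.07 in both treatments, with CWF19L1 at 0.82 in cholate and 0.31 in vehicle and WDR43 at 0.44 and 0.28.

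Of 16 other noncoding hosts 3 were measured. SNHG17 read 9.37 in cholate and 9.52 in vehicle on Transwell, and 9.02 in cholate and 9.23 in vehicle on the plate. It was lower in cholate on both supports and higher on Transwell in both treatments. ZFAS1 stood at -0.02 with cholate on Transwell and 0.14 on the plate, and EPB41L4A-AS1 at -0.03 and 0.01. For support, both were lower on Transwell, by -0.21 in cholate and -0.05 in vehicle for ZFAS1 and by -0.21 and -0.17 for EPB41L4A-AS1. These 3 are the noncoding hosts whose own level the arrays give, and none was 0.32 log2 apart with cholate.

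**Figure D5:**
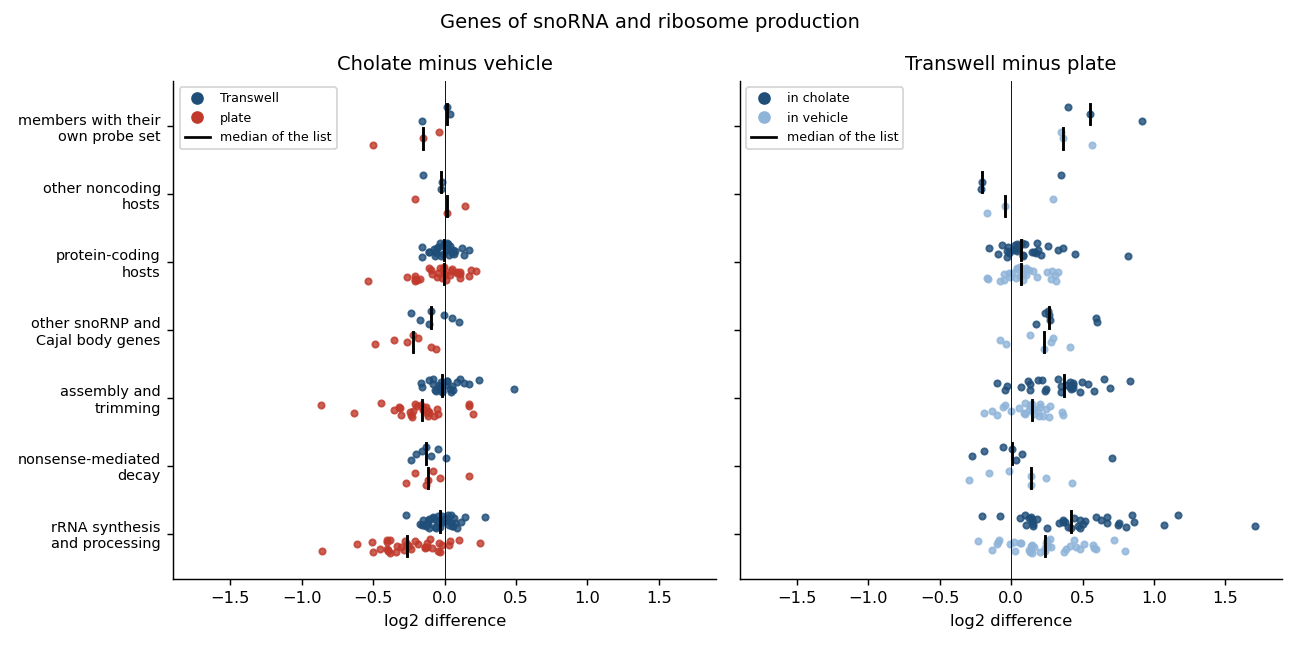
Log2 differences (horizontal axes) of the genes in each list, 1 point per gene above the floor and a bar at the list's median, for cholate minus vehicle (left) and Transwell minus plate (right). The rRNA synthesis and processing list has medians of -0.27 on the plate with cholate and of 0.42 for Transwell minus plate in cholate.

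DKC1 had the widest range of the 3 measured members, 1.07 log2 over the 4 arrays. The 4 genes with the most similar profile, by Euclidean distance between values centred on their own mean over 4 arrays, were TMEM168 at 0.02, CASP5 at 0.04, GALNT7 at 0.06 and NOC3L at 0.07. TMEM168, the nearest, read 9.45 in cholate and 9.61 in vehicle on Transwell, and 8.56 in cholate and 9.07 in vehicle on the plate. NOC3L, the farthest of the 4, read 7.93 in cholate and 8.04 in vehicle on Transwell, and 7.07 in cholate and 7.54 in vehicle on the plate.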

How the data were processed

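The authors deposited log2 intensities, 1 per probe set and array, and the submitters' processing notes name RMA. No software or version is named there. RMA normalizes between arrays, so a shift shared by most transcripts would not show. Each of the 4 arrays held a pool of 3 samples. Of 33297 probe sets, 19460 list 1 gene, 1754 several and 12083 none in the platform annotation; genes within hosts came from RefSeq (GRCh38.p14), and promoter windows from RefSeq too. Members and lists were chosen with earlier results of these data known. From the log2 values, differences between arrays were computed without a test, with marks at 1.5-fold and 0.32 log2, over 19978 probe sets above the floor. Support was tested with limma 3.58.1 in R 4.3.3 (lmFit, eBayes, additive, 2-sided), with 1 residual and 2.83 prior degrees of freedom. The Benjamini-Hochberg adjustment ran over all 19978 probe sets above the floor, with or without a listed gene. Genes named: all members, hosted snoRNAs with a probe set, per list the 2 largest mean cholate and 2 largest mean support differences, and the 4 nearest profiles. NHP2 and GAR1 are named without values as members of their list. Alternatives were other scalings, floors, folds, probe set rules and eBayes settings.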

Additional observations from a re-analysis of the deposited data

Results flagged for a closer look

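In 3 shared probe sets, Transwell minus plate had opposite signs in the 2 treatments, each larger than the residual spread of that probe set in the limma fit. The difference between treatments was not tested. The residual spread is itself made from that difference, so it is no separate yardstick. The same difference is also the Transwell response to cholate minus the plate response. Cholate responses entered the choice of the genes, so these flags are a description and not a separate result on support. The probe set of SNHG1 and SNORD25 stood at -0.59 in cholate and 0.45 in vehicle, a difference of -1.04 log2. That of SNHG1 and SNORD26 stood at -0.16 and 0.33, a difference of -0.48. That of SNHG12 and SNORA61 stood at -0.34 and 0.22, a difference of -0.56. No condition has enough arrays to look for a sample that lies apart.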

How the results depend on the processing

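No paired analysis was possible because each condition has 1 array, and for the same reason no replicate could be left out. Median centring, quantile normalization, cyclic loess and averaging the probe sets of a gene left 716 of 720 single differences within the residual spread of their probe set. The other 4 moved beyond it without a called value changing sign. Part of this count was fixed in advance. Median centring shifts all differences of a contrast equally, here by less than the residual spreads. Averaging cannot change a shared probe set or a gene with 1 probe set. With shared probe sets admitted, a choice made after seeing the data, 7 members had a value, 4 of them only from a probe set that also lists snoRNAs. Their median cholate response on the plate was -0.036 against -0.15 log2, and their median support difference in cholate was 0.40 against 0.55. These medians mix shared signals with protein transcripts and are not levels of the hosts. Members passing limma for support numbered 1 with the floor at the 60th percentile, where the count over all probe sets is not given. Under the other 7 alternatives they numbered 0. Adjusted p-values for DKC1 from limma ran from 0.0402 to 0.21 over all alternatives. Over the same alternatives adjusted p ran from 0.0655 to 0.247 for FBL and from 0.0577 to 0.237 for NOP58. Members past the mark with cholate numbered 1 at 0.32 log2 against 0 at 1.5-fold. For support they numbered 2 under median centring, 3 at 0.32 log2 and 0 at 2-fold, against 1.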

Other observations

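Spliced host RNAs of the SNHG kind are known substrates of nonsense-mediated decay, so its factors were also followed. Of 10 genes 7 were measured, and with cholate 1 of the 7 was above 0 on either support, against 46.4% of all genes on Transwell and 44.9% on the plate, with medians of -0.13 on Transwell and -0.11 on the plate and none past 0.32 log2. SMG9, a regulator of the SMG1 kinase, stood at -0.24 on Transwell and -0.13 on the plate, and its partner SMG8 at 0.01 and -0.27. The support medians were 0.01 in cholate and 0.14 in vehicle, with SMG8 at 0.71 and 0.43 and the endonuclease gene SMG6 at -0.28 and -0.30. None of the 7 passed limma for support.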
